A study of Mus musculus with 17 samples.

Results

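The POU class 3 genes Pou3f1, Pou3f2 and Pou3f3 and the POU class 4 genes Pou4f1 and Pou4f2 were followed through H3K27ac HiChIP, an assay that counts contacts between stretches of chromatin enriched for this acetylation, which marks promoters and enhancers in use. They are 5 of 22367 nuclear protein-coding genes of the mm9 annotation, of which 19244 had a loop anchor within 5 kb of a start site. A loop was taken as a member's own when an anchor lay within 5 kb of its start site, which gave 336 of 1211657 loops and 11 of 216081 anchors. The genes were chosen by the read pairs counted in loops at their start sites, and earlier results of these libraries were known at the time, so the levels given here are a description and the adjusted p-values are not independent evidence.

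The cells came from R1 mouse embryonic stem cells (mESC) that formed embryoid bodies (EBs) in hanging drops and were grown in 0.5 µM retinoic acid (RA) until day 4, and this treatment was shared by every library. In the bulk group, 12 libraries were made from unsorted EB cells, a mixture of lineages. In the double positive group, which the labels call cluster2, 5 libraries were made from cells that carried both EpCAM and CD38 at the surface and were collected by FACS. No untreated or undifferentiated library was compared here, and nothing in the labels ties a library to a separate culture, so p-values measure the spread between these libraries, which may be technical. Loop read pairs per library ran from 65148 to 241068 in bulk and from 50508 to 118179 in the double positive group. Loops of more than 5 read pairs numbered 24 to 751 per bulk library and 731 to 3209 per double positive library. This difference in how far read pairs concentrate in loops cannot be told apart from the group.

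POU factors bind DNA through a POU-specific domain and a homeodomain, and many recognise the octamer ATGCAAAT or A/T-rich relatives of it. Class 3 factors are known for roles in neural progenitors and migrating neurons, and Pou3f2 is one of the factors used to turn fibroblasts into neurons. Class 4 factors are known for the differentiation of sensory neurons (Pou4f1) and retinal ganglion cells (Pou4f2). Pou3f2 lies at the edge of a gene desert, a long interval without protein-coding genes, on chromosome 4.

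The anchor at the Pou3f2 start site and its desert partners carry the main result, so their sequences come first. Promoter windows of RefSeq (build GRCm38.p6, 300 bases around the annotated start) were present for 4 of the 5 genes, and those of Pou3f2 (chr4:22488317-22488616, minus strand) and Pou3f3 (chr1:42695518-42695817, plus strand) are shown because these genes had the most loops and read pairs. From mm9, plus strand, follow the central 300 bases of the desert anchor 347 kb upstream of Pou3f2 (chr4:22762872-22763171) and the stretches of 120 bases around each motif match in the desert anchors with the most Pou3f2 read pairs. These lie at chr4:22421247-22421366 and chr4:22423781-22423900, both in the anchor next to the gene on its upstream side, and at chr4:23913408-23913527, in the anchor about 1.5 Mb upstream. In the motif stretches capitals mark the octamer ATGCAAAT or the motif ATAATTAAT, read on either strand. In the other windows capitals would mark these motifs or GATC, the site cut by MboI in the assay.
Pou3f2 promoter: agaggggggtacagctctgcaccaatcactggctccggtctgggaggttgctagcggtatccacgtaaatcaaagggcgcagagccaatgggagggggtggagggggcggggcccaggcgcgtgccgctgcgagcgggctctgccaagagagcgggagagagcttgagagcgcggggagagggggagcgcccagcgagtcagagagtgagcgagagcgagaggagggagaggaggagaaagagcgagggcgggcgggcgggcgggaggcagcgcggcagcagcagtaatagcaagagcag
Pou3f3 promoter: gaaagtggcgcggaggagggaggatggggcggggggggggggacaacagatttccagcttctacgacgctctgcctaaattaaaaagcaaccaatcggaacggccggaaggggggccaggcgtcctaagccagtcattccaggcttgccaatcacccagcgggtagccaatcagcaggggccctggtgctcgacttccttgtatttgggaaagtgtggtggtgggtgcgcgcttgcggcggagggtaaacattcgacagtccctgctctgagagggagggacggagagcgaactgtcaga
347 kb anchor, centre: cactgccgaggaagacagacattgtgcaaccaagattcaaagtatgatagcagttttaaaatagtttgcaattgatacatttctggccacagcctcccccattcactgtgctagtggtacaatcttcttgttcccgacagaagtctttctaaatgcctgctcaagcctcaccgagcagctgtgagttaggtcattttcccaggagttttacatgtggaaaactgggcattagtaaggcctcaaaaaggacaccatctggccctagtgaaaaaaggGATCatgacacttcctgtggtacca
Upstream neighbour, octamer: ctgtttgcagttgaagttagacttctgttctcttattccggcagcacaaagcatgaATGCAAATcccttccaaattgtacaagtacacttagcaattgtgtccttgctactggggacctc
Upstream neighbour, ATAATTAAT on the minus strand: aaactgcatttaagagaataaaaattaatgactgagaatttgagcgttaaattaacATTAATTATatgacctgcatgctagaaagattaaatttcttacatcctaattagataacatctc
1.5 Mb anchor, octamer on the minus strand: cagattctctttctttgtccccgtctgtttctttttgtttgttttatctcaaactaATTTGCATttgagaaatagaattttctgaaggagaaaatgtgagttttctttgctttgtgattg

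The Pou3f2 promoter window was 67.7% G+C, above 86.8% of the 32851 promoter windows, and the Pou3f3 window was 60.3% G+C. None of the 4 windows held the octamer, which 1.74% of all promoter windows did, or ATAATTAAT, which 0.274% did. GATC, searched on both strands like the others, was found in 48.0% of all windows and in neither window shown. The upstream neighbour of Pou3f2 spans 6114 bases and held 1 match to each motif. Of the 3454 anchors within 10% of that width, 31.8% held the octamer and 11.9% held ATAATTAAT. The 1.5 Mb anchor held 1 octamer, as did 26.9% of 9131 anchors of a like width, and the 347 kb anchor held neither motif. The only capitals in its centre are therefore a GATC site.

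Pou3f2 and Pou3f3 had many more loop read pairs in bulk than the other members. Pou3f2 (ENSMUSG00000052621.2, chr4:22413791-22415480, minus strand, a gene of 1 exon) had 374 bulk read pairs in 116 loops, more than 98.8% of genes with an anchor. Pou3f3 (ENSMUSG00000045515.2, chr1:42753991-42757052, plus strand, 1 exon) had 241 bulk read pairs in 126 loops, more than 96.5% of such genes. Pou3f1 (ENSMUSG00000078236.3, chr4:124334896-124337899, plus strand, 1 exon), known from Schwann cells and from early neural commitment, had 32 bulk read pairs in 33 loops. Pou4f1 (ENSMUSG00000048349.6, chr14:104862737-104867216, minus strand, 3 exons) had 31 in 29 loops and Pou4f2 (ENSMUSG00000031688.1, chr8:80956908-80960551, minus strand, 2 exons) had 32 in 32 loops. The median gene with an anchor had 37.0 bulk read pairs, so these last 3 genes lay slightly below the middle. Of the 336 loops, 242 rested on 1 read pair over all 17 libraries.

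In the double positive libraries the 5 genes had between 3 and 9 read pairs each, 32 in all against 710 in bulk. Values below are loop read pairs at the start site, scaled by TMM and given as CPM, relative to 1000000 loop read pairs. TMM factors assume that most genes keep their level between libraries. With them 42.8% of tested genes were called lower and 20.6% higher, so the calls do not meet that assumption. The factors were 0.5719 to 0.7997 in bulk and 2.319 to 2.511 in the double positive libraries. Each CPM is divided by its factor, so TMM lowers double positive values relative to bulk. Log2 differences with library totals alone are given below for the 5 members. The values count contacts of acetylated chromatin and are not RNA levels. In bulk, where fewer cells of a type and less signal per cell cannot be told apart, a level is an average over all cells of the EB.

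Pou3f2 had 132 CPM in the lowest bulk library, a median of 320 and 534 CPM in the highest, a mean of 322 ± 113 (SD, n = 12). The 5 double positive libraries had 10.9, 4.88, 0, 15.8 and 8.22 CPM (replicates 1 to 5), from 3, 1, 0, 2 and 2 read pairs. Every bulk library lay above every double positive library. The log2 difference, double positive minus bulk, was -5.15 ± 0.39 (SE; edgeR quasi-likelihood test, Benjamini-Hochberg adjusted p = 4.06e-13 over 14115 genes). The pooled read pairs gave a ratio of 0.0249, with an exact 95% interval of 0.0107 to 0.0495 that covers counting error only, as do all such intervals and floors here.

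Pou3f3 ran from 66.1 CPM in the lowest bulk library through a median of 177 to 373 CPM, with a mean of 197 ± 100 (SD, n = 12). In the double positive libraries it had 7.30, 14.7, 0, 7.88 and 12.3 CPM, from 2, 3, 0, 1 and 3 read pairs. Again all 12 bulk libraries lay above all 5 double positive libraries. The log2 difference was -4.33 ± 0.44 (SE; edgeR, adjusted p = 3.70e-10), and the pooled ratio was 0.0434 (exact 95% interval 0.0196 to 0.0838).

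The other members were counted too thinly for library values to separate. Pou3f1 had 0 to 51.8 CPM in bulk, with a median of 32.9, and 3.65, 4.88, 0, 23.7 and 4.11 CPM in the double positive libraries. The double positive replicate 4, with 3 read pairs, reached into the bulk range, and 9 of 12 bulk libraries lay above it. Pou4f1 had 0 to 67.0 CPM in bulk, with a median of 16.4, and 3.65, 0, 7.86, 0 and 4.11 CPM in the double positive libraries, from 3 read pairs in all, and 10 of 12 bulk libraries lay above every one of them. Pou4f2 had 0 to 161 CPM in bulk, with a median of 13.5, and 7.30, 14.7, 0, 7.88 and 0 CPM in the double positive libraries. Bulk replicate 7 held 16 of its 32 bulk read pairs, and 6 of 12 bulk libraries lay above every double positive library.

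**Figure D1:**
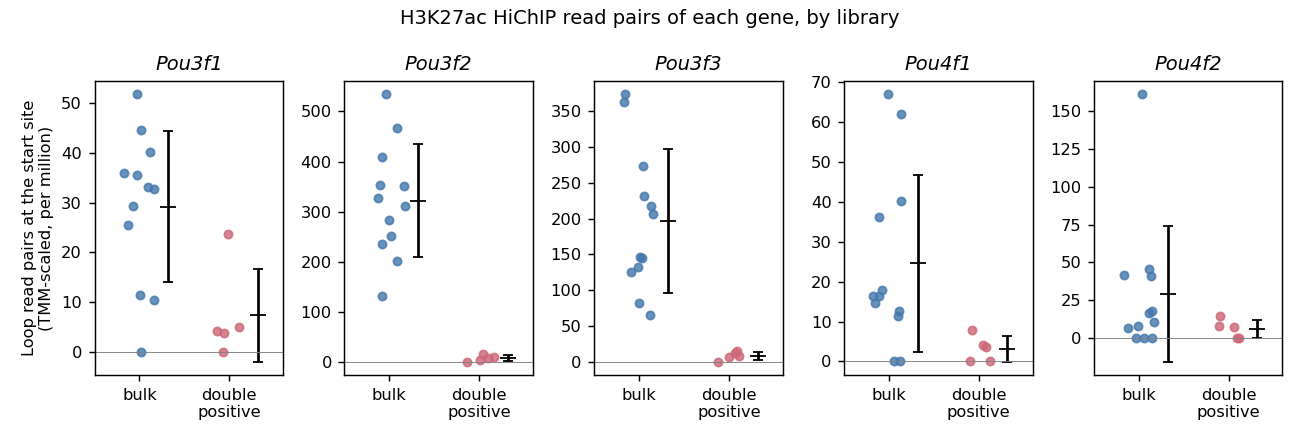
Loop read pairs at the start site of each gene, in TMM-scaled CPM (vertical axes, which differ between panels), in the 12 bulk and 5 double positive libraries; each point is 1 library and the bar beside it is the mean with its SD. For Pou3f2 and Pou3f3 every bulk library lies above every double positive library, while for the other genes some bulk libraries lie within the double positive range.

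In the fit across all genes each of the 5 members passed the test as lower in the double positive libraries, beside 42.8% of all 14115 genes called lower and 20.6% called higher. For Pou3f1 the log2 difference was -2.02 ± 0.60 (SE; edgeR, adjusted p = 0.00374), for Pou4f1 -2.76 ± 0.71 (adjusted p = 0.000981) and for Pou4f2 -2.08 ± 0.80 (adjusted p = 0.0234). The median over all genes was -0.52 on this scale, and relative to it Pou3f2 stood at -4.63, Pou3f3 at -3.81, Pou4f1 at -2.24, Pou4f2 at -1.56 and Pou3f1 at -1.51. With libraries scaled by their totals alone, the median of all genes was 1.21, 26.2% of genes were called lower, and Pou3f2 (-3.48) and Pou3f3 (-2.64) passed the test. Pou3f1 (-0.37, adjusted p = 0.601), Pou4f1 (-1.21, 0.156) and Pou4f2 (-0.40, 0.659) did not pass under that scaling. Without bulk replicate 7 the value of Pou4f2 was -1.26 (adjusted p = 0.133).

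The anchors differed between the groups, which bears on all of these values. Of 216081 anchors 15074 were used by loops of both groups and 200999 by bulk loops alone, and the sources do not say whether an anchor missing from double positive loops was left uncalled or had no read pair. The double positive set below means the anchors used by double positive loops, so an anchor outside it has no double positive read pair by definition. At each member exactly 1 of its 2 or 3 anchors was used in both groups. When loops were kept only where both anchors were shared, Pou3f2 had 158 bulk read pairs, from 4 to 35 per library, against 8. Its log2 difference was -5.26 ± 0.37 (SE; edgeR, adjusted p = 5.36e-44), where 11.7% of 9845 genes were called lower. Pou3f3 had 78 against 9 read pairs and a log2 difference of -4.11 ± 0.42 (adjusted p = 7.21e-21). On these shared anchors Pou3f1 had 5 bulk and 6 double positive read pairs, Pou4f1 2 and 3, and Pou4f2 1 and 6, too few for the fit. Relative to the group totals on shared anchors, the pooled ratio was 0.581 (exact 95% interval 0.148 to 2.41) for Pou3f1, 0.727 (0.0832 to 8.70) for Pou4f1 and 2.91 (0.353 to 134) for Pou4f2. All 3 intervals include a ratio of 1, so on shared anchors no difference was detectable for these genes at this depth.

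Setting genes side by side needs the anchor length, which ran from 4251 bases in all at Pou3f1 to 12679 at Pou4f2. Per kb of anchor, bulk CPM was 45.2 ± 23.0 (SD, n = 12) for Pou3f3, 43.4 ± 15.2 for Pou3f2, 6.87 ± 3.56 for Pou3f1, 2.29 ± 3.53 for Pou4f2 and 2.11 ± 1.90 for Pou4f1. Pou3f3 and Pou3f2 did not differ beyond their spread, nor did Pou4f2 and Pou4f1. Every library of Pou3f2 (17.9 or more) and Pou3f3 (15.2 or more) lay above every library of Pou3f1, whose highest value was 12.2. Before division by length Pou3f2 stood above Pou3f3, so their order rests on the wider Pou3f2 anchors.

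At the Pou3f2 start site the anchor chr4:22414122-22418343 holds the start and most of the gene. It had 311 bulk and 8 double positive read pairs, 264 ± 87.9 CPM (SD, n = 12) against 7.96 ± 5.97 (SD, n = 5), a log2 difference of -4.88 ± 0.39 (SE; edgeR at anchors, adjusted p = 9.28e-16, with 76.1% of 43452 anchors called lower). The second anchor, chr4:22408215-22411398, lies downstream of the gene and had 80 bulk read pairs and none in the double positive libraries. Against a floor of 3 counts over the group it was at least 22.9-fold lower with TMM scaling and at least 6.75-fold with library totals alone, but it is not in the double positive anchor set. Later bounds are given in the same order.

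At Pou3f3 the anchor chr1:42750570-42753597 ends 394 bases upstream of the start. It had 165 bulk and 9 double positive read pairs and a log2 difference of -3.82 ± 0.44 (SE; edgeR, adjusted p = 6.92e-11). Its upstream neighbour chr1:42747688-42749017 had 76 and 0, at least 21.8-fold or 6.42-fold lower, and was not in the double positive set either. The anchors over the starts of Pou4f1 (chr14:104864586-104868543, 17 against 3 read pairs, log2 difference -1.93, adjusted p = 0.0203) and Pou4f2 (chr8:80957974-80968962, 29 against 6, -1.94, adjusted p = 0.0151) passed the same test. The Pou3f1 start anchor (chr4:124333582-124335939, 19 against 6 read pairs) did not, at -1.25 (adjusted p = 0.0894). In all, 6 of 7 tested member anchors were called lower, close to the background of 76.1%. The second Pou3f2 anchor and the upstream neighbour at Pou3f3 entered the test through bulk read pairs alone, so they could not be called higher.

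The Pou3f2 loops fell into a dense local set and a scatter over long distances, with little between. Loops spanning under 20 kb, 5 in number, held 162 bulk read pairs (43.3%), while spans of 20 to 100 kb held 4 (1.07%), spans of 100 to 500 kb held 85 (22.7%) and spans over 500 kb held 123 (32.9%). There were 14 anchors 20 to 100 kb from the promoter anchor, and 4 of them were joined to the gene, against 34 of 75 anchors at 100 to 500 kb. None of the 14, 1 of the 75, and 10 of 196 anchors over 500 kb away were in the double positive set.

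Among 13187 genes with at least 20 bulk read pairs, the median gene had 14.6% of them under 20 kb, 56.3% over 100 kb and 20% over 500 kb. Pou3f2 had 55.6% over 100 kb, close to that median, from 43.8% to 72.2% between bulk libraries. Its share over 500 kb was above that of 84.5% of genes and the Pou3f3 share, 36.5%, above that of 89.5%. Counting each Pou3f2 loop once in place of its read pairs put 92.2% over 100 kb, since the local loops are few and deep.

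**Figure D2:**
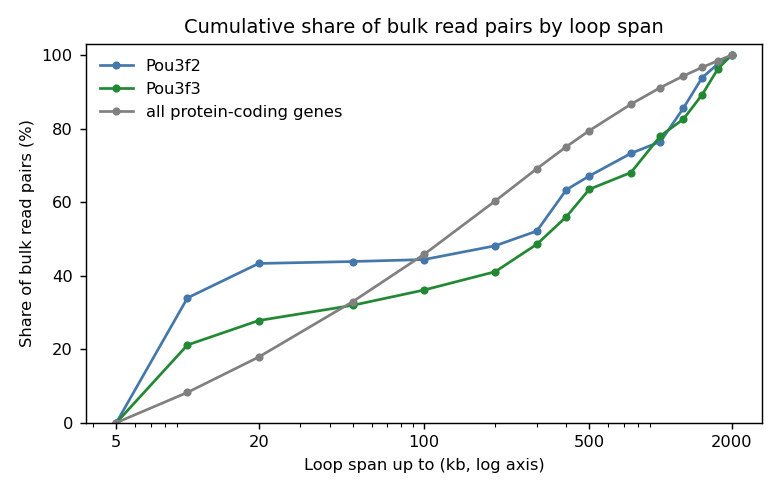
Cumulative share of bulk read pairs (percent) against loop span (kb, log axis) for Pou3f2, Pou3f3 and all loops at protein-coding start sites, pooled over the 12 bulk libraries. The Pou3f2 curve climbs to 43.3% by 20 kb, stays flat to 100 kb and rises again beyond, while the curve of all genes climbs steadily.

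The desert runs for 2.06 Mb from the end of Fbxl4, 52.6 kb beyond the 3′ end of Pou3f2, to Mms22l, 2.01 Mb upstream of it (chr4:22361239-24423597). Loops span at most 2 Mb, so every upstream partner lies in the desert by construction. Bulk read pairs were nonetheless uneven between the sides, with 301 upstream in 95 loops and 56 downstream in 20 loops, and a further 17 joined the 2 anchors of the gene itself. Over 100 kb the upstream side held 191 read pairs and the downstream side, which leaves the desert within 52.6 kb, held 17. In all 90.9% of the bulk read pairs had their partner in the desert, 87.5% to 100% between libraries. Of 128 anchors between Fbxl4 and Mms22l, those at Pou3f2 itself included, 80 were joined to Pou3f2 as partners.

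**Figure D3:**
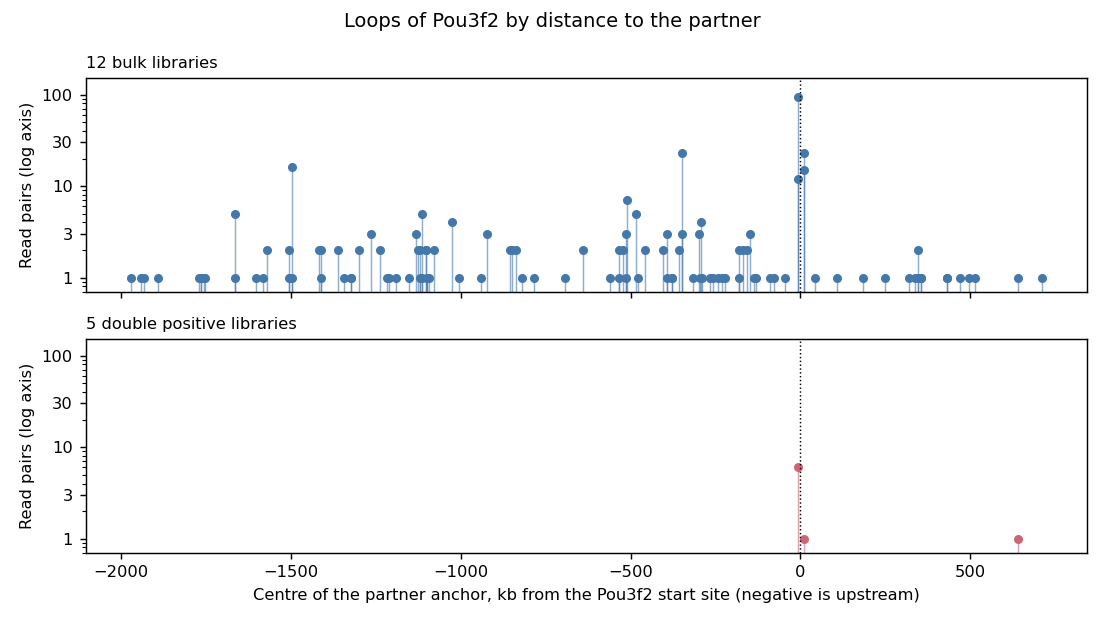
Read pairs of each Pou3f2 loop (log axis) against the distance of the partner anchor from the start site (kb, negative upstream), summed over the 12 bulk libraries (upper panel) and the 5 double positive libraries (lower panel); each point is 1 loop. Bulk partners are spread over the upstream 2 Mb with high points near 347 and 1496 kb, and the double positive libraries show 3 loops.

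The deepest Pou3f2 loop joined the promoter anchor to its upstream neighbour chr4:22420627-22426740, the anchor with the motif matches printed above, over 7.45 kb. Bulk replicates 1 to 12 had 5, 26, 11, 10, 10, 3, 9, 8, 3, 4, 0 and 6 read pairs, and the double positive libraries had 2, 1, 0, 1 and 2. Of 33433 loops within 20% of its span that had a bulk read pair, 5 had as many as its 95, itself included. Its log2 difference was -3.54 ± 0.49 (SE; edgeR at loops, adjusted p = 1.44e-11, with 19.9% of 5369 loops called lower). The groups overlap in read pairs, through bulk replicate 11 at 0.

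The next loop ran 11.6 kb downstream to chr4:22402828-22406350 and had 23 bulk read pairs in 9 libraries and 1 double positive read pair, a log2 difference of -3.38 ± 0.78 (adjusted p = 4.14e-05) and a pooled ratio of 0.0506 (exact 95% interval 0.00123 to 0.311). The third joined the promoter to chr4:22761940-22764104, 346.8 kb upstream. Bulk replicates 1 to 12 had 1, 2, 3, 8, 1, 0, 2, 3, 1, 0, 1 and 1 read pairs there, and all 5 double positive libraries had 0, which makes the loop at least 6.59-fold or 1.94-fold lower (edgeR, adjusted p = 2.28e-06). The loop met the filter of the test through bulk read pairs alone, so it could only be called lower or not called. It was seen in 10 bulk libraries, and of 115969 loops of a like span 10 had as many bulk read pairs. Both of its anchors were in the double positive set, so it could have been listed there.

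Beyond it, chr4:23909264-23914221, about 1496 kb upstream, had 17 bulk read pairs with the anchors of Pou3f2 in 7 libraries, and chr4:22923895-22927369, 510.2 kb upstream, had 7 in 5 libraries. Neither had a double positive read pair. The first was at least 4.87-fold or 1.44-fold lower by the same floor, and its anchor is not in the double positive set. For the second, 7 bulk read pairs give a bound of 2.01-fold with TMM and none with library totals, so a difference there depends on the scaling. None of the top 5 desert partners overlaps an annotated gene. Of the 80 partners, 7 overlap a noncoding gene or pseudogene, and 5 of these Gm11884, with 2 read pairs at most each.

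These 5 partners also met one another. Counted over all of their loops, the upstream neighbour had 315 bulk read pairs, of which 34.0% were with Pou3f2, the downstream neighbour 146 (26.0%), the 347 kb anchor 154 (16.9%), the 1.5 Mb anchor 145 (11.7%) and the 510 kb anchor 47 (14.9%). All 10 pairs among the 5 had a bulk read pair, 92 in total, and 9 had 3 or more. Over all 8106 pairs of desert anchors 5 kb to 2 Mb apart, 6.13% had a bulk read pair and 0.777% had 3 or more. The partners were chosen for their read pairs with Pou3f2, so this contrast is a description. The deepest of these contacts, 24 bulk read pairs and 1 double positive, joined the upstream neighbour to the 347 kb anchor. As anchors, the 5 had 13, 6, 5, 0 and 3 double positive read pairs in the order above, and each was called lower (adjusted p from 3.46e-14 to 7.17e-06), as were 76.1% of all tested anchors; the 5 were picked for their bulk read pairs.

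The 8 double positive read pairs of Pou3f2 went to the upstream neighbour (6), the downstream neighbour (1) and an anchor at the start of Sfrs18, 641.3 kb downstream (1). No double positive read pair spanned more than 100 kb on the upstream side, against 191 in bulk, which is at least 54.7-fold or 16.1-fold lower. Between 20 kb and 500 kb from the promoter the double positive set held 1 anchor, so for most of the desert the absence cannot be told apart from anchors that were not called. Other loops within 1 Mb of Pou3f2 fell too, from 710 to 76 read pairs, a ratio of 0.124. The gene's 0.0249 is scaled in the same way but counts its loops of any span. Within 1 Mb Pou3f2 itself had 286 bulk and 8 double positive read pairs. The share of regional read pairs that touched Pou3f2, which no scaling between libraries affects, was 18.2% to 33.9% in bulk (median 27.8%) and 0% to 25% in the double positive libraries (median 8%). The upper end of the latter overlaps the bulk range, and 9 of 12 bulk libraries lay above it.

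Pou3f3 showed a like local set. Its deepest loop, 9.61 kb to the upstream anchor chr1:42740231-42744711, had 4, 5, 5, 1, 0, 1, 1, 2, 3, 0, 0 and 0 read pairs in bulk replicates 1 to 12 and 1, 2, 0, 0 and 1 in the double positive libraries. Its log2 difference was -1.98 ± 0.65 (SE; edgeR, adjusted p = 0.00405), and with scaling by library totals alone it was -0.42 (adjusted p = 0.585). The groups overlapped in read pairs. The same upstream anchor met the second Pou3f3 anchor in 19 bulk read pairs in 6 libraries and in none of the double positive libraries, at least 5.45-fold or 1.6-fold lower. A loop of 19.4 kb to the downstream anchor chr1:42769498-42773485 had 13 bulk read pairs in 8 libraries and 1 double positive read pair. Fhl2, which encodes a LIM domain protein, was the protein-coding start site met most often by a Pou3f3 loop in bulk, with 4 read pairs at about 470 kb. Other loops within 1 Mb fell from 2134 to 270 read pairs, a ratio of 0.147. The share that touched Pou3f3 was 1.39% to 11.3% in bulk and 0% to 5.17% in the double positive libraries.

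The loops of Pou3f1, Pou4f1 and Pou4f2 were single contacts for the most part, with 29 of 33, 26 of 29 and 27 of 32 loops resting on 1 read pair. The deepest Pou3f1 loop joined its start to that of Sf3a3, a splicing factor gene 52.6 kb downstream, with 1 bulk and 2 double positive read pairs, and its next loops reached 3100002H09Rik and Fhl3 with 1 read pair in each group. The deepest Pou4f1 loop, 8.35 kb between 2 of its own anchors, had 4 bulk read pairs, a second of 420.2 kb had 2, and another of 643.9 kb reached into Ednrb, the endothelin receptor gene of neural crest cells, with 1 read pair in each group. The deepest Pou4f2 loop joined its start anchor to that of Smad1, a transducer of BMP signals, over 958 kb. It had 1 read pair each in double positive replicates 1, 2 and 4 and none in bulk, where both anchors were in use. A count of 3 is too small for a fold. The next Pou4f2 loops, of 18.9 kb and 30.1 kb, had 2 bulk read pairs each.

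Around these genes the other loops were also fewer in the double positive libraries. Other loops within 1 Mb fell from 1970 to 195 read pairs at Pou3f1 (ratio 0.115), from 970 to 28 at Pou4f1 (0.0336) and from 861 to 17 at Pou4f2 (0.0230). The pooled ratios of the genes themselves, over loops of any span, rest on 6, 3 and 6 double positive read pairs. They were 0.218 (exact 95% interval 0.0745 to 0.529), 0.113 (0.022 to 0.361) and 0.218 (0.0745 to 0.529). The intervals of Pou3f1 and Pou4f1 include the ratio of the region, and that of Pou4f2 lies above it. Fewer anchors were in the double positive set there, 4.35% of those within 1 Mb of Pou4f1 and 2.83% at Pou4f2, against 7.32% at Pou3f2, 10.3% at Pou3f3 and 11.2% at Pou3f1.

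A list of other POU genes was read beside the members. Of 9 in the list, 5 were tested, 3 were called lower and 1 higher, beside 42.8% and 20.6% of all genes, too few genes to set apart from those shares, with a median log2 difference of -1.40 beside -0.52. Pou2f1, a broadly expressed octamer factor, had 152 bulk and 12 double positive read pairs (log2 difference -3.41 ± 0.36 (SE), edgeR adjusted p = 1.06e-09). Pou2f2, known from B cells, had 128 and 22 (-2.26 ± 0.34, adjusted p = 6.24e-07). Pou5f1, the pluripotency factor, was the one called higher, with 30 and 56 read pairs, 28.1 ± 18.2 CPM (SD, n = 12) against 57.0 ± 32.7 (SD, n = 5), a log2 difference of 1.06 ± 0.41 (SE; adjusted p = 0.0225). No loop reached Pou3f4, the remaining class 3 gene. Pou4f3, the remaining class 4 gene, had 15 bulk read pairs and none in the double positive libraries, and too few for the test. Its 1 anchor was not in the double positive set.

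Neural progenitor genes linked to class 3 factors were lower in the double positive libraries, like Pou3f2 and Pou3f3. Of 13, 11 were tested and all 11 were called lower, with a median of -3.17, beside the 42.8% of all genes. Sox11, a SoxC factor of newborn neurons, had 324 bulk and 4 double positive read pairs (log2 difference -5.71 ± 0.51 (SE), edgeR adjusted p = 2.64e-11). Pax6, a factor of radial glia and eye, had 418 and 39 (-3.17 ± 0.29, adjusted p = 4.77e-11). Sox3 had no anchor within 5 kb, and Sox1 was not analysed here.

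Of 15 sensory and retinal neuron genes linked to class 4 factors, 12 were tested, 9 were called lower and none higher, beside 42.8% and 20.6% of all genes. The median was -3.19, or -2.67 with the 3 genes that had no double positive read pair set to their bound. These 3, Drgx, Runx1 and Runx3, had no anchor in the double positive set and are among the 9 called lower. Neurod1, a basic helix-loop-helix factor of differentiating neurons, had 169 bulk and 5 double positive read pairs (log2 difference -4.60 ± 0.45 (SE), edgeR adjusted p = 1.76e-10). Runx1, a factor of blood stem cells and of pain-sensing neurons, had 58 and 0, at least 16.6-fold or 4.90-fold lower (adjusted p = 4.62e-08). None of its 3 anchors was in the double positive set, so this fall cannot be told apart from anchors that were not called. Prph, which encodes the intermediate filament peripherin of peripheral neurons, was the only tested gene of the list with a positive value, 0.32 (adjusted p = 0.466). The lists, like the members, were drawn up with earlier results known.

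**Figure D4:**
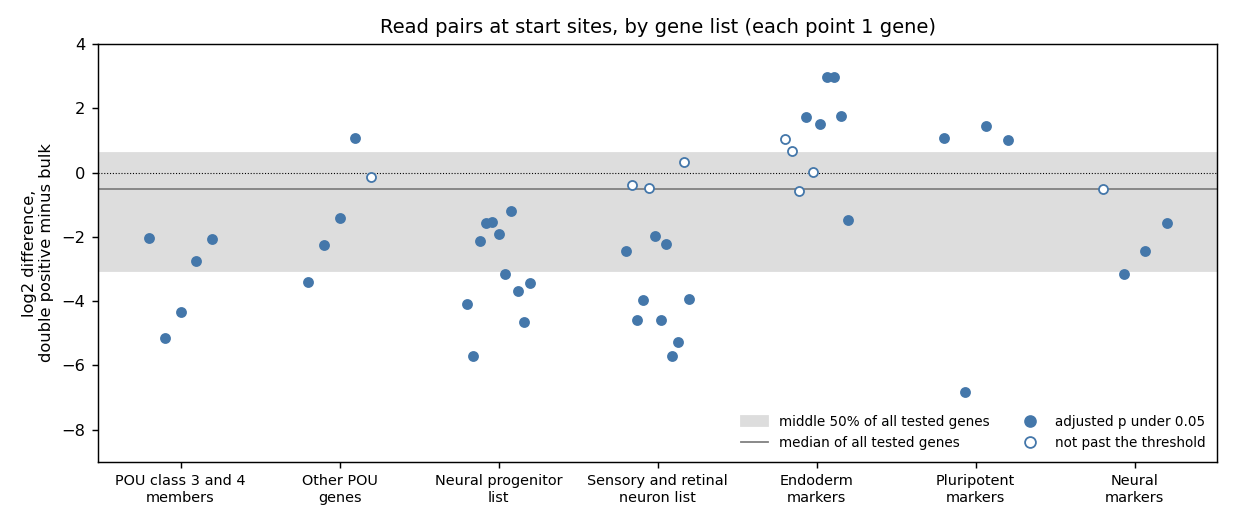
Log2 difference in read pairs at start sites, double positive minus bulk (vertical axis), for each tested gene of the members, the lists and the marker sets; filled points passed the adjusted threshold of 0.05, the line is the median of all tested genes (-0.52) and the grey band their middle 50%. All 11 tested neural progenitor genes lie below the median line, as do the 5 members.

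Markers of the sorted cells were read in the same way. They are to be read beside the 20.6% of all genes called higher and the 42.8% called lower. Of 10 endoderm markers 5 were called higher and 1 lower. Krt18, an epithelial keratin with the largest rise of the list, had 90 bulk and 603 double positive read pairs. Dab2 was the one called lower (60 and 19 read pairs, log2 difference -1.48, edgeR adjusted p = 0.00632). The endoderm factors Sox17 (36 and 22 read pairs, -0.57, adjusted p = 0.404) and Gata6 (41 and 36, 0.02, adjusted p = 0.973) were not called. The surface markers used for the sort, Epcam (13 and 25 read pairs, log2 difference 1.05, adjusted p = 0.107) and Cd38 (36 and 51, 0.65, adjusted p = 0.195), did not pass the test. Of 7 neural markers 4 were tested, 3 were called lower and none higher, and the summed level of the list was 463 to 1330 CPM in bulk and 181 to 222 CPM in the double positive libraries. The 3 called lower, Pax6, Neurog1 and Nes, also belong to the neural gene lists above. Tubb3, which does not, was not called (log2 difference -0.52, edgeR adjusted p = 0.147). Of 6 pluripotent markers 4 were tested, 3 called higher and 1 (Esrrb, 132 and 0 read pairs) lower, with summed levels of 147 to 522 and 158 to 313 CPM. None of the 9 Esrrb anchors was in the double positive set. The part of these cell type differences in the values of the POU genes was not tested.

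The genes on other chromosomes whose CPM followed Pou3f2 most closely over the 17 libraries were Smyd3 (Pearson r of log2(CPM + 1) 0.986), Rtn1 (0.978) and Lass6 (0.978), which had 759, 151 and 253 bulk read pairs and 43, 11 and 53 in the double positive libraries. Of 13161 genes compared, 918 had an r of 0.9 or more. The libraries form 2 groups, so an r taken over both includes the difference between them.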

How the data were processed

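H3K27ac HiChIP was measured in 12 bulk and 5 double positive libraries of EBs. The authors aligned the reads with HiC-Pro to mm9, called peaks and loops with hichipper and describe removing replicates with few strong loops. How that filter was applied to these libraries is not stated. Strong loops as counted here, with more than 5 read pairs, were as few as 24 in bulk replicate 10. Of the bulk libraries only replicates 2 (751) and 3 (537) reached the minimum the authors give. Every double positive library, with 731 or more, reached it. The deposited values are counts of read pairs per loop, without normalization, and loops without a read pair are not listed.

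Overlapping anchors were joined, giving 216081 anchors and 1211657 loops, and 700 read pairs whose anchors fell together were dropped. Spans are between anchor centres. Gene positions are those of GENCODE vM1 (mm9), and promoter sequences are those of RefSeq. Read pairs were summed per gene (window of 5 kb around each start site), per anchor and per loop. Features reaching 20 read pairs in total and seen in 5 or more libraries entered the comparison of the double positive with the bulk libraries in R 4.3.3 with edgeR 4.0.16 (TMM, quasi-likelihood, Benjamini-Hochberg over all features of a level). The TMM factors of the gene sums also scaled anchors and loops, because counts at those levels are sparse. In simulated data 200 of 12000 genes were changed, and every feature was open to both groups. There 93% of genes with a 4-fold rise and 57% with a 4-fold fall were recovered, with 2.6% false calls. For anchors these were 75%, 23% and 3.92%, and for loops 88%, 29% and 2.5%. Simulated anchors and loops were drawn and fitted with the same gene factors, so the simulation does not test that choice of factors. Many more features differ in the measured libraries, whose anchors also differ, so the shares of false calls need not hold there. The anchors listed in loops differ between the 2 groups, so a fall in the double positive libraries may mix fewer read pairs with anchors that were not called. No pair of libraries agreed within sampling noise (chi-square over anchors with at least 10 read pairs).

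Ratios of pooled counts have exact (Clopper-Pearson) 95% intervals. For groups with no read pair a floor of 3 counts over the group was used, and both cover counting error only. Libraries held 50508 to 241068 loop read pairs, so loops of 1 or a few read pairs have no usable precision. The members and gene lists were chosen with earlier results of these data known. All 5 members were named, with the 3 deepest loops of each, the 5 deepest desert partners of Pou3f2, its double positive partners, the 2 genes of smallest p in each direction per list and the 3 genes most like Pou3f2. Other genes (Fbxl4, Mms22l, Fhl2, Krt18, Dab2, Sox17, Gata6, Epcam, Cd38, Esrrb, Prph, Drgx, Runx3, Neurog1, Nes, Tubb3, Sox1, Sox3) mark the desert or were named after their values were seen. Alternatives were DESeq2 1.42.0 size factors, library size alone, other filters, windows and spans, shared anchors, thinned libraries, the replicate number as a block and each library left out. Drgx is listed in the annotation as Prrxl1, Dab2 has several identifiers of which the first was used, and Sox1 and Map2 were not matched.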

Additional observations from a re-analysis of the deposited data

Results flagged for a closer look

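Among the 5 double positive libraries, the Pou3f1 level of replicate 4 (23.7 CPM, from 3 read pairs) stood apart from the other 4 libraries (0 to 4.88 CPM). The distance to the next library made up 0.793 of the whole range, above the critical value of 0.71. It was the only one of 5 genes so marked, and chance marks about 1 in 20. Without this library the log2 difference of Pou3f1 was -2.73 in place of -2.02. The group of 12 bulk libraries is too large for this check.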

How the results depend on the processing

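Pou3f2 and Pou3f3 were called lower at gene level under every alternative run, from -6.54 to -3.48 for Pou3f2 and from -5.22 to -2.64 for Pou3f3. The count of members called lower, 5, was 2 under library size alone, and 2 of the 2 still testable with at least 50 read pairs, thinned libraries, shared anchors, the replicate block and the same 10 libraries without the block. It was 4 to 5 with each library left out. Pou4f2 was lost with DESeq2 (-2.16, adjusted p = 0.0543) and without bulk replicate 7 (-1.26), double positive replicate 3 (-1.88) or 5 (-1.73), and Pou3f1 with a window of 2.5 kb (-1.37). Among all genes 6040 were lower and 2906 higher, with 3702 and 7800 under library size alone. The lower count was 3786 at 50 read pairs, 3067 when thinned, 9771 unfiltered, 1151 on shared anchors and 3966 with the replicate block, and 5517 to 5940 (higher 2572 to 2941) with a library left out. The block did not pair the libraries (correlations of same-numbered deviations -0.0143 to 0.0104), and with it Pou3f2 was at -5.59 and Pou3f3 at -4.49.

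Of 7 tested member anchors 6 were lower, 4 to 7 with a double positive library left out and 2 of 2 on shared anchors. Under library size alone Pou3f1 turned to 0.37 (adjusted p = 0.636), and Pou4f1 (-0.41) and Pou4f2 (-0.26) were not called. The anchor of Pou4f1 was also lost without double positive replicate 2 (-1.66, adjusted p = 0.0566) and that of Pou4f2 without replicate 5 (-1.59, 0.055), and that of Pou3f1 was gained without replicate 4 (-1.98, 0.0173). All anchors called lower, 33073, were 8498 at 50 read pairs, 11725 with the replicate block, 939 on shared anchors and 32804 to 32890 with a library left out. All 4 tested member loops were lower, and 1 of the 1 still testable at 50 read pairs and with the replicate block. Loops called lower over the whole table, 1070, were 129 at 50 read pairs, 345 with the block, 494 on shared anchors and 1013 to 1045 with a library left out. TMM factors from the anchor or loop counts themselves, chosen after seeing the data, changed no call of a member.

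The Pou3f2 share over 100 kb, 55.6%, was 70.3% with a window of 10 kb, 92.2% with each loop counted once and 53.8% to 57.2% with a bulk library left out. The desert share, 90.9%, was 96.8% with a window of 2.5 kb, 65.9% with 10 kb, 85.2% with each loop counted once and 90.2% to 91.2% with a bulk library left out. These shifts follow at least in part from the definitions. With a window of 10 kb the upstream and downstream neighbours become anchors of Pou3f2. Read pairs between them and the gene then leave the desert count. With 2.5 kb the second Pou3f2 anchor is no longer counted as the gene's own. How much of each shift this makes up was not computed. Depth limits Pou3f1, Pou4f1 and Pou4f2, with 3 to 6 double positive read pairs each.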
